A study of Rattus norvegicus with 8 samples.

Results

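Collagens, laminins and their basement membrane partners were examined in rat brain cells sorted for A2B5 and OTMP. The genes were all those whose annotated symbol is Col, Lama, Lamb or Lamc followed by a digit, together with Nid1, Nid2, Fn1, Hspg2, Agrn and Sparc. This gave 53 of 13810 genes named by single-gene probe sets: 37 collagen genes, 10 laminin genes and the 6 listed genes. They were read by 76 of 31142 probe sets, of which chip A carried 58 and chip B 18. Of the 53 genes, 34 had 1 probe set and 19 had several.

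Collagens are helical trimers. The fibrillar types build the fibres of connective tissue, and type IV forms the sheet-like network of basement membranes. Laminins are trimers of an alpha, a beta and a gamma chain that form the other network of these sheets, and nidogens and the heparan sulfate proteoglycans perlecan and agrin join the networks. In brain the sheets lie around blood vessels and under the pia, where endothelial cells, mural cells, fibroblasts and astrocytes contribute chains. The spaces between neurons and glia hold little fibrillar collagen.

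The cells came from the brain of rats at postnatal day 7 and were isolated by flow cytometry on A2B5, an antigen of glial precursor cells, together with OTMP. The labels call them perineuronal oligodendrocytes, and do not state how many animals each replicate pooled. RNA from 4 biological replicates was hybridised to 2 types of Affymetrix array, chip A and chip B, which gave 8 samples in 2 groups of 4. The series holds 1 cell population and no control, so each deposited value is the only comparison: a linear ratio to a reference that no label names. How the ratio was formed is not stated, so whether the reference was a separate sample is not known. A ratio above 1 means more signal than in the reference. It does not show how bright a gene was, whether it was detected, or whether it exceeded another gene. Ratios are given for replicates 1 to 4 in order, then the mean log2 ratio ± SD (n = 4 arrays), with 0 for a ratio of 1. A probe set was called higher or lower by a two-sided limma test of the log2 ratio against 0, adjusted over all probe sets of its array type, at an adjusted p below 0.05. Since the reference is unknown, p-values concern the spread among these replicates.

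Markers of other cells differed in how they stood against the reference, which bears on genes that several cell types make. Counts are of genes with a higher and with a lower probe set, beside 9.23% and 37.7% of all genes, and a gene can be in both. Of 12 astrocyte marker genes 10 were higher and 3 lower, and of 10 neuronal genes 5 and 3. Of 10 measured oligodendrocyte lineage genes, the list that matches the labels, 1 was higher (Pdgfra at 0.93 ± 0.65) and 1 lower (Olig2 at -0.43 ± 0.12). Of 17 measured endothelial genes 1 was higher (Slc2a1 at 0.42 ± 0.28) and 0 lower. Of 12 mural genes 1 was higher and 6 lower, of 18 fibroblast and meningeal genes 4 and 4, and of 10 microglial genes 0 and 4. The counts of 0 by limma, lower endothelial and higher microglial genes, were also 0 at an unadjusted p below 0.05. Array medians of the ratio lay between 0.888 and 0.967. In bulk RNA, a change in the number of cells of a type cannot be told apart from a change in RNA per cell.

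Promoter windows are shown for the genes that share or nearly share a start region, and for the 2 type VIII collagen genes, whose ratios varied together between replicates (values below). They come from RefSeq (GRCr8) and run from 250 bases before to 50 after a start. Letters run 5′ to 3′. Capitals mark GC boxes (GGGCGG) and CCAAT boxes (CCAAT) on either strand. The windows of Col4a1 and Col4a2, which point away from each other on chromosome 16, overlap over 176 bases at chr16:84885471-84885646, shown on the plus strand. Those of Col4a6 and Col4a5 on chromosome X lie 914 bases apart, at chrX:109905895-109906194 on the minus strand and chrX:109907109-109907408 on the plus strand. Col8a1 lies at chr11:56246532-56246831 and Col8a2 at chr5:143870519-143870818, both on the plus strand.
Col4a1 and Col4a2 shared: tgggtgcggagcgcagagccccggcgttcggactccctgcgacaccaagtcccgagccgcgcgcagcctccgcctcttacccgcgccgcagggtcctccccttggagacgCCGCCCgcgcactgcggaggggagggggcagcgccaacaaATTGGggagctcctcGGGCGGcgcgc
Col4a5: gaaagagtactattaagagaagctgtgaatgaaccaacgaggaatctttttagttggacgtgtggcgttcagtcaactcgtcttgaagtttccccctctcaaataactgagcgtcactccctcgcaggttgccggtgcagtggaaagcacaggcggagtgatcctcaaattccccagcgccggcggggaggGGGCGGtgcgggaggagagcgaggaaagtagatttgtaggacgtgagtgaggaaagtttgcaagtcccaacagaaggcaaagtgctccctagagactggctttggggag
Col4a6: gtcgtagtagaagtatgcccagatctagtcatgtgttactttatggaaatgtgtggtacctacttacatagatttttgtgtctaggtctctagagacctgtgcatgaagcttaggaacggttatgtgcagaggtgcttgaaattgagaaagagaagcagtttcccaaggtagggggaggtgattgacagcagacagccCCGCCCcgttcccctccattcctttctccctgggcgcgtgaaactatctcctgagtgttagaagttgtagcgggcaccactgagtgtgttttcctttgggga
Col8a1: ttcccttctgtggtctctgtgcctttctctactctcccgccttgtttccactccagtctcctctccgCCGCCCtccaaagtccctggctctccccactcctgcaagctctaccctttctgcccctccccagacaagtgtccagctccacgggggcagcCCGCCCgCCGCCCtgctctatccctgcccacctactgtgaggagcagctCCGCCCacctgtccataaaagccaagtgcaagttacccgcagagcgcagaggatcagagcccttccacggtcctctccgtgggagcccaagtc
Col8a2: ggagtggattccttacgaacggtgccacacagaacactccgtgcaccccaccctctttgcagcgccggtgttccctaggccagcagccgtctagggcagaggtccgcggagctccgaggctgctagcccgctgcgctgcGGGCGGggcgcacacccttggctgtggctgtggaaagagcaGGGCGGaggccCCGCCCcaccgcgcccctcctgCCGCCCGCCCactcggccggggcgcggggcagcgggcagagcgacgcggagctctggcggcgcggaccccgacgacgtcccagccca

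The shared Col4a1 and Col4a2 stretch held 2 GC boxes and 1 CCAAT box and was 75.0% G and C. The Col4a5 and Col4a6 windows held 1 GC box each and no CCAAT box, while Col8a1 held 4 GC boxes and Col8a2 held 5. Promoter windows were found for 42 of the 53 genes. Of these genes 23 (54.8%) had a GC box in a window, against 33.1% of all 33469 windows, which include those of noncoding genes. A CCAAT box was present for 11 (26.2%), against 37.5% of windows, and the letters TATAAA for 5 (11.9%), against 14.2%. A match of letters is a description of the window, not a binding site.

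More of these genes had a higher probe set than genes in general, and fewer had a lower one. By limma 13 of the 53 genes (24.5%) had a probe set above a ratio of 1, where 9.23% of all 13810 genes did, and 9 (17.0%) had one below, where 37.7% of all genes did. Both directions occurred in 3 genes, Col6a3, Col12a1 and Lama5, and 34 genes had no call. On chip A 13 of 58 probe sets were higher and 4 lower, against 9.21% and 30.1% of all probe sets there. On chip B 1 of 18 was higher and 6 were lower, against 5.08% and 27.1%. The median of the mean log2 ratios was 0.17 for these probe sets on chip A, where that of all probe sets was -0.11. On chip B it was -0.09, beside -0.11 for all.

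The excess was small for most genes and depended on settings. With arrays centred on their medians 17 genes were higher (11.9% of all genes) and 9 lower (30.8%), the additions being Col6a2, Col16a1, Col26a1 and Lamc3. On chip B that centring raised the higher probe sets from 1 to 4 of 18, beside 6 lower ones in either setting. Over all probe sets the centred shares were 11.8% higher and 23.3% lower on chip A, and 5.68% higher and 23.7% lower on chip B. Without replicate 4, 7 of the 13 genes were higher and none was added. The share of all genes in that fit was not computed, so whether the excess over all genes changed there is unknown. Above the 95th percentile of a panel of genes from other organs, on each array, only Col27a1 was left (0.89 above that level, limma one-sided adjusted p = 0.0278), where 4.01% of all genes, 3.3% of chip A and 4.44% of chip B probe sets lay above it.

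**Figure D1:**
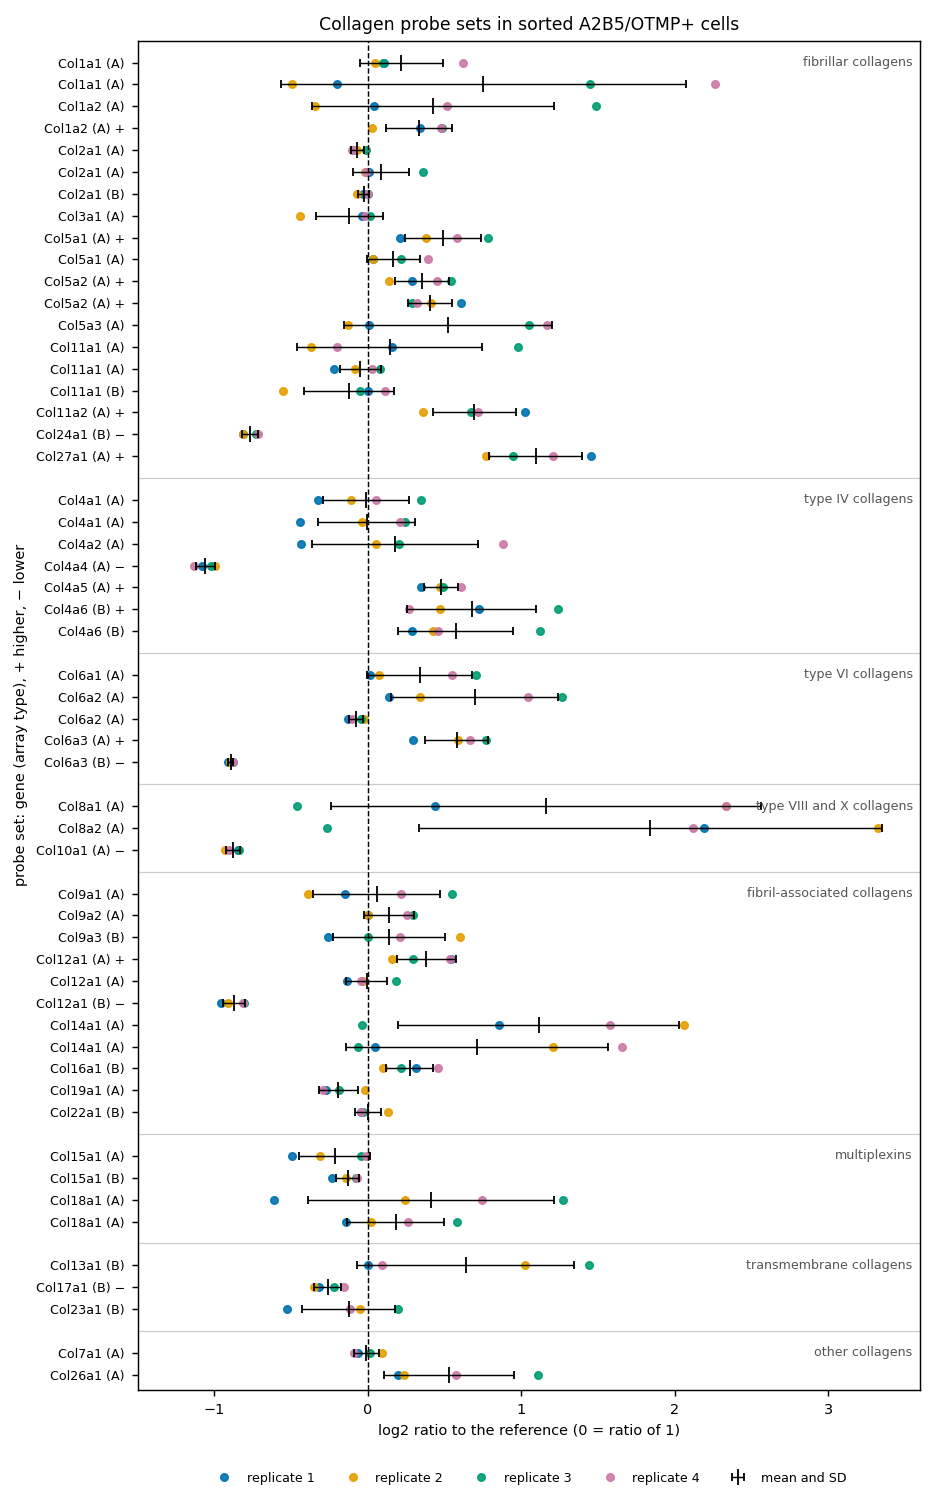
Log2 ratio (x axis, 0 = ratio of 1) of each collagen probe set (y axis, gene and array type, + for a higher and − for a lower call) on 4 arrays, coloured by replicate, with the mean and SD as a black mark and bar. Col27a1 lies right of 0 on every array at 1.09 ± 0.30, the points of Col8a1 and Col8a2 spread widest, and the lower calls such as Col6a3 on chip B (-0.89 ± 0.02) form tight clusters.

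Among 11 fibrillar collagen genes 5 had a higher probe set and 1 a lower one, beside 9.23% and 37.7% of all genes. Col27a1, a fibrillar collagen best known from cartilage, had ratios of 2.74, 1.70, 1.92 and 2.31 and a mean of 1.09 ± 0.30 (limma adjusted p = 0.00180). Every array lay above 1, replicate 1 highest and replicate 2 lowest. Col11a2, a chain of the thin fibrils of cartilage, had ratios of 2.04, 1.28, 1.59 and 1.65 (0.69 ± 0.27, adjusted p = 0.00734). Its partner gene Col11a1 stood at 0.14 ± 0.60, -0.05 ± 0.13 and -0.12 ± 0.29 on its 3 probe sets, none called. Col24a1, another fibrillar chain, was lower on chip B at 0.570, 0.570, 0.604 and 0.608 (-0.77 ± 0.05, adjusted p = 0.000268).

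Type V collagen regulates the diameter of type I fibrils. Both Col5a2 probe sets were higher, the first at 1.22, 1.10, 1.45 and 1.37 (0.35 ± 0.18, limma adjusted p = 0.0290) and the second at 1.52, 1.33, 1.22 and 1.25 (0.41 ± 0.14, adjusted p = 0.0123). The first of these calls was lost without replicate 1, 3 or 4 (adjusted p = 0.0719, 0.0852 and 0.102) and the second was kept in each case. Col5a1 had ratios of 1.16, 1.30, 1.72 and 1.50 on 1 probe set (0.49 ± 0.25, adjusted p = 0.0196), which was lost without replicate 4 (0.0741), and stood at 0.17 ± 0.17 on the other. Col5a3 stood at 1.01, 0.915, 2.08 and 2.24 (0.52 ± 0.68, adjusted p = 0.177). Replicates 3 and 4 were more than 2-fold up and replicates 1 and 2 lay at the reference.

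Col1a1 and Col1a2 encode the chains of type I collagen, the main collagen of fibrous tissue. One Col1a1 probe set had ratios of 0.870, 0.709, 2.72 and 4.80 (0.75 ± 1.32, limma adjusted p = 0.294) and the other 1.08, 1.03, 1.07 and 1.54 (0.22 ± 0.27). On the first, replicate 4 was 6.77 times replicate 2, so its mean is not separated from the reference. Col1a2 ran at 1.03, 0.789, 2.80 and 1.43 on 1 probe set (0.42 ± 0.79) and at 1.26, 1.02, 1.40 and 1.40 on the other (0.33 ± 0.21, adjusted p = 0.0496). That call was the one nearest the threshold and was lost without replicate 1, 3 or 4 (limma adjusted p = 0.129, 0.144 and 0.157). Col3a1, the type III chain of vessel walls and meninges, had ratios of 0.976, 0.735, 1.01 and 0.989 (-0.12 ± 0.22), and the 3 probe sets of Col2a1, the cartilage type II chain, stood between -0.07 and 0.08.

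Of 5 measured type IV genes 2 had a higher probe set and 1 a lower one, beside 9.23% and 37.7% of all genes. Col4a1 and Col4a2 encode the chains of the common type IV network and are the pair whose promoter windows overlap. The Col4a1 probe sets had ratios of 0.798, 0.927, 1.27 and 1.04, and of 0.735, 0.976, 1.18 and 1.16, both with a mean of -0.01 (± 0.28 and ± 0.32). Col4a2 had 0.741, 1.04, 1.15 and 1.84 (0.18 ± 0.54, limma adjusted p = 0.558). All 3 probe sets were lowest in replicate 1 and next lowest in replicate 2, and none differed from the reference beyond its spread.

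Col4a5 and Col4a6, the neighbouring pair on chromosome X, were higher. Col4a5 had ratios of 1.27, 1.38, 1.40 and 1.53 (0.48 ± 0.11, limma adjusted p = 0.00465), with all 4 arrays above 1 and close together. Col4a6 on chip B had 1.66, 1.39, 2.36 and 1.20 (0.68 ± 0.42, adjusted p = 0.0457) and 1.22, 1.34, 2.18 and 1.37 (0.57 ± 0.37, adjusted p = 0.0545). All 8 Col4a6 values were above 1, and replicate 3 was highest on both probe sets. The Col4a6 call was lost without replicate 1 (0.156) or 2 (0.10) and with a trended, robust variance prior (0.0648). Col4a4, a chain of the kidney filter membrane, was lower at 0.473, 0.501, 0.492 and 0.456 (-1.06 ± 0.06, adjusted p = 0.000175).

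Type VI collagen forms beaded filaments near basement membranes. Col6a3 was higher on chip A at 1.22, 1.51, 1.71 and 1.59 (0.58 ± 0.21, limma adjusted p = 0.00700) and lower on chip B at 0.531, 0.536, 0.544 and 0.544 (-0.89 ± 0.02, adjusted p = 0.000128). Col6a2 had 1.10, 1.27, 2.41 and 2.06 on 1 probe set (0.70 ± 0.54, adjusted p = 0.0510), just outside the threshold, and -0.08 ± 0.05 on the other. Col6a1 stood at 1.01, 1.05, 1.63 and 1.46 (0.34 ± 0.34, adjusted p = 0.120). For Col6a1 and this first Col6a2 probe set, replicates 3 and 4 were up and replicates 1 and 2 were closer to the reference.

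The highest mean of all belonged to a type VIII gene, without a call. Col8a1 and Col8a2 encode the short chains of a hexagonal network known from the cornea and vessels. Col8a2 had ratios of 4.56, 10.0, 0.832 and 4.34 (1.84 ± 1.51, limma adjusted p = 0.0535). Col8a1 had 1.36, 5.05, 0.728 and 5.04 (1.16 ± 1.40, adjusted p = 0.145). Col14a1, a fibril-associated collagen, had 1.81, 4.17, 0.973 and 2.99 on 1 probe set (1.11 ± 0.91, adjusted p = 0.0554) and 1.03, 2.31, 0.955 and 3.15 on the other (0.71 ± 0.85, adjusted p = 0.148). All 4 probe sets were lowest in replicate 3, at or under the reference. Without replicate 3 the means were 2.54 for Col8a2 (adjusted p = 0.00478), 1.70 for Col8a1 (0.0468) and 1.50 for the first Col14a1 probe set (0.0149), so these calls turned on replicate 3. The Col8a2 call also turned on the variance prior: with all 4 replicates and a trended, robust prior its adjusted p was 0.0458. Col10a1, the short-chain collagen of growth plate cartilage, was lower at 0.556, 0.526, 0.560 and 0.534 (-0.88 ± 0.04, adjusted p = 0.000281).

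Of the 8 fibril-associated genes, beside 9.23% higher and 37.7% lower of all genes, only Col12a1 had calls, and they disagreed. It was higher on 1 chip A probe set at 1.46, 1.12, 1.22 and 1.45 (0.38 ± 0.19, limma adjusted p = 0.0250), at -0.01 ± 0.13 on the other, and lower on chip B at 0.516, 0.532, 0.571 and 0.570 (-0.87 ± 0.07, adjusted p = 0.000250). The higher call was lost without replicate 1, 3 or 4 (0.0888, 0.0550 and 0.0902). Col16a1 stood at 0.27 ± 0.15 (adjusted p = 0.0501). Col9a1, Col9a2, Col9a3, Col19a1 and Col22a1 lay between -0.19 and 0.14.

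The multiplexins Col15a1 and Col18a1 encode collagens of vascular basement membranes, the latter the source of endostatin. Neither was called. One Col18a1 probe set ran from 0.655 in replicate 1 over 1.19 and 1.67 in replicates 2 and 4 to 2.42 in replicate 3 (0.41 ± 0.80), and the other from 0.906 to 1.50. Col15a1 stood at -0.22 ± 0.23 on chip A and -0.13 ± 0.07 on chip B. Among the transmembrane collagens, Col17a1 of hemidesmosomes was lower at 0.803, 0.783, 0.859 and 0.897 (-0.26 ± 0.09, limma adjusted p = 0.0215), a call lost without replicate 1, 2 or 3 (0.0786, 0.0783 and 0.0687). Col13a1 ran at 1, 2.03, 2.71 and 1.07 (0.64 ± 0.71) and Col23a1 stood at -0.13 ± 0.30. Col7a1 of anchoring fibrils stood at -0.01 ± 0.08 and Col26a1 at 0.53 ± 0.42 (adjusted p = 0.0593).

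**Figure D2:**
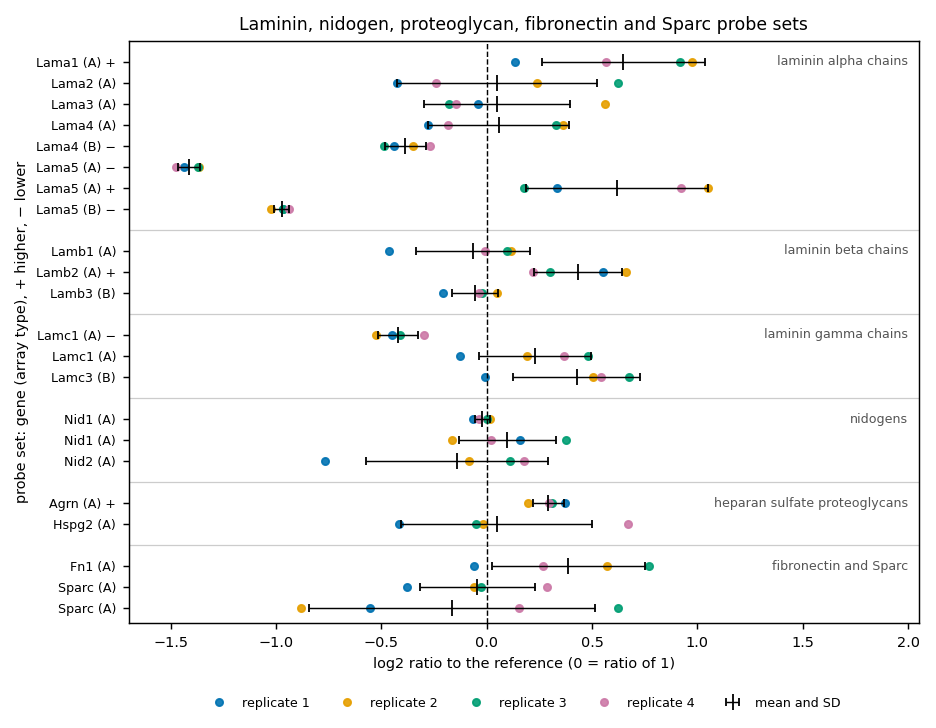
Log2 ratio (x axis, 0 = ratio of 1) of each laminin, nidogen, proteoglycan, fibronectin and Sparc probe set (y axis, gene and array type, + for a higher and − for a lower call) on 4 arrays, coloured by replicate, with the mean and SD in black. The 3 Lama5 probe sets run from -1.41 to 0.62, and replicate 1 is the left-most point for Nid2, Lamb1 and Hspg2.

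Of 10 laminin genes 3 had a higher probe set and 3 a lower one, with Lama5 in both counts. Over all genes these shares were 9.23% and 37.7%. Lama1, an alpha chain of the pial and embryonic basement membranes, was higher at 1.10, 1.97, 1.89 and 1.48 (0.65 ± 0.39, limma adjusted p = 0.0249). Replicate 1 was lowest, and the call was lost without replicate 2, 3 or 4 (0.0674, 0.0834 and 0.0701). Lama2, the main alpha chain that astrocytes, mural cells and muscle deposit, had 0.744, 1.18, 1.54 and 0.845 (0.05 ± 0.48), and Lama3 of skin 0.972, 1.48, 0.883 and 0.905 (0.05 ± 0.35). Lama4, an endothelial alpha chain, stood at 0.06 ± 0.33 on chip A and was lower on chip B at 0.736, 0.785, 0.714 and 0.830 (-0.39 ± 0.10, adjusted p = 0.00652).

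Lama5, the other vascular alpha chain, gave opposite calls. One chip A probe set was higher at 1.26, 2.07, 1.13 and 1.89 (0.62 ± 0.43, limma adjusted p = 0.0388), a call lost without replicate 1, 2 or 4 (0.0543, 0.0930 and 0.127). The other chip A probe set was lower at 0.369, 0.388, 0.386 and 0.359 (-1.41 ± 0.05, adjusted p = 0.000102), and the chip B one at 0.512, 0.492, 0.511 and 0.522 (-0.97 ± 0.04, adjusted p = 0.000117). The distance between its highest and lowest mean was 2.03 on the log2 scale, the widest of the 19 genes with several probe sets.

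Among beta chains Lamb2, found at synaptic and vascular basement membranes, was higher at 1.47, 1.58, 1.23 and 1.17 (0.43 ± 0.21, limma adjusted p = 0.0196), a call lost without replicate 1 (0.0725) or 2 (0.0587). Lamb1, the widespread beta chain, had 0.725, 1.08, 1.07 and 0.993 (-0.07 ± 0.27), and Lamb3 stood at -0.05 ± 0.11. The widespread gamma chain Lamc1 was lower on 1 probe set at 0.731, 0.695, 0.751 and 0.814 (-0.42 ± 0.10, adjusted p = 0.00644) and stood at 0.917, 1.14, 1.40 and 1.29 on the other (0.23 ± 0.26, adjusted p = 0.181). Lamc3 had 0.993, 1.42, 1.60 and 1.46 (0.43 ± 0.30, adjusted p = 0.0699). For Lamc3, replicate 1 was the array at the reference.

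Among the linkers of the networks only agrin was called, and the means of the others lay close to the reference. Agrn, which clusters acetylcholine receptors at the neuromuscular junction and is also part of brain vessel membranes, had 1.29, 1.15, 1.24 and 1.23 (0.29 ± 0.07, limma adjusted p = 0.0191). The excess was small but even over the arrays, and the call was lost without replicate 1, 3 or 4 (0.0817, 0.0579 and 0.0672). Hspg2, the perlecan gene, had 0.748, 0.988, 0.966 and 1.59 (0.05 ± 0.46). Nid2 had 0.587, 0.944, 1.08 and 1.13 (-0.14 ± 0.43), and the Nid1 probe sets had 0.957, 1.01, 1 and 0.974 (-0.02 ± 0.04) and 1.12, 0.891, 1.30 and 1.01 (0.10 ± 0.23). None of these 3 genes was called.

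Fibronectin and Sparc are matrix proteins, the second a collagen-binding protein made by glia and vessels. Fn1 had 0.958, 1.49, 1.70 and 1.21 (0.39 ± 0.36, limma adjusted p = 0.0965), with replicate 1 at the reference and the other arrays above it. Without replicate 1 it was higher (0.54, adjusted p = 0.0354). The Sparc probe sets had 0.770, 0.960, 0.981 and 1.22 (-0.04 ± 0.27) and 0.680, 0.543, 1.54 and 1.11 (-0.17 ± 0.68), neither called.

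The lower calls shared a narrow spread. The 4 on chip A had a median SD of 0.06 and the 6 on chip B of 0.06, where other probe sets called lower had 0.11 and 0.07. The higher calls on chip A had a median SD of 0.21, beside 0.28 for other higher probe sets. The lowest of 24 bacterial control probe sets on chip A, for thr, a bacterial transcript that rat cells do not make, had ratios of 0.427, 0.455, 0.460 and 0.420 on chip A (-1.18 ± 0.07). Those of Lama5 (0.369, 0.388, 0.386 and 0.359) and Col4a4 (0.473, 0.501, 0.492 and 0.456) had a similarly small spread, also with replicates 2 and 3 on top. Lama5 was under that control on every array and Col4a4 was above it. The other thr probe sets on chip A were nearer the reference, at -0.17 ± 0.07 and -0.06 ± 0.09. Whether that transcript was added to the samples is not stated in the labels. Of the 24, 4 had a mean log2 ratio under -0.7. Ratios therefore do not show whether the low probe sets of Lama5, Col4a4, Col10a1, Col24a1, Col6a3 and Col12a1 detected a transcript. Among genes with several probe sets, Lama5, Col6a3 and Col12a1 differed by 2.03, 1.47 and 1.25 between their highest and lowest mean, while Col4a1, Col5a2 and Col1a2 differed by 0.003, 0.05 and 0.09.

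**Figure D3:**
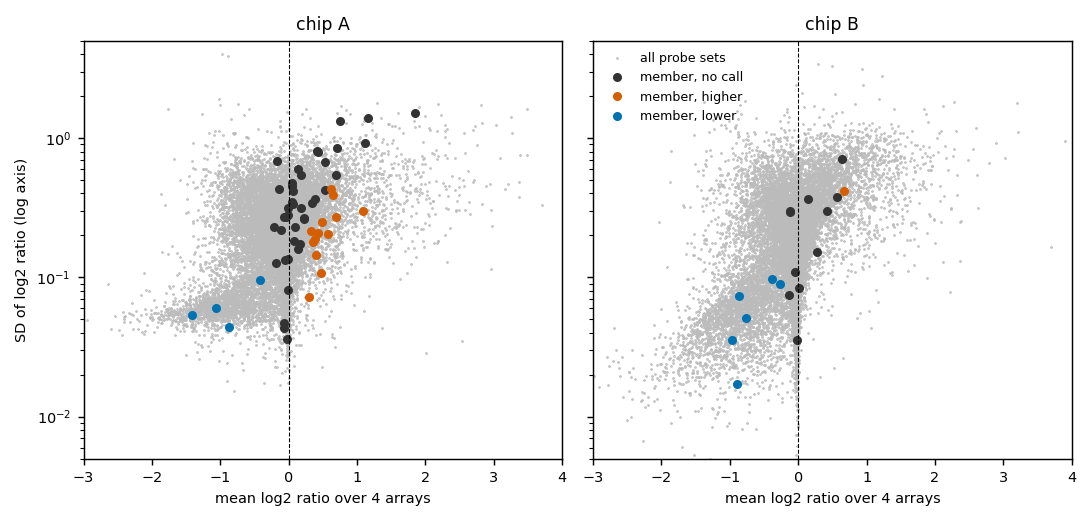
Mean log2 ratio (x axis) against the SD over 4 arrays (y axis, log axis) for all probe sets in grey and for the matrix genes in colour by call, chip A left and chip B right. Lower calls lie left of 0 at small SDs in each panel (median SD 0.06 on chip A). The uncalled probe sets at the upper right of chip A include Col8a2 at 1.84 ± 1.51.

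The replicates ordered many of these genes alike. Replicate 1 was lowest on 27 of their 58 chip A probe sets, where it was lowest on 25.9% of all chip A probe sets. With arrays centred it was lowest on 23 of the 58, beside 21.4% of all. Replicate 2 was then lowest on 21, also beside 21.4% of all. Replicates 3 and 4 were the highest pair on 27 of the 58, where they were on 13.6% of all. The groups that follow were formed after the values had been seen, so their counts are descriptions only. For genes of brain vessel basement membranes (Col4a1, Col4a2, Col15a1, Col18a1, Lama4, Lama5, Lamb1, Lamb2, Lamc1, Nid1, Nid2, Hspg2 and Agrn), replicate 1 was lowest on 12 of 18 chip A probe sets. The exceptions were both Lama5 probe sets, Lamb2, Agrn and 1 probe set each of Lamc1 and Nid1. The median log2 ratio of these 18 was -0.37 in replicate 1, 0.02 in replicate 2, 0.22 in replicate 3 and 0.19 in replicate 4. Endothelial markers were also lowest in replicate 1, on 19 of 22 chip A probe sets, with medians of -0.55, 0.46, 0.19 and 0.23. Mural markers had medians of -0.30, -0.22, -0.06 and -0.33, with replicate 1 lowest on 7 of 15. The part of endothelial RNA in the matrix values was not tested.

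For collagens I, III, V and VI, replicates 3 and 4 were the highest pair on 11 of 14 chip A probe sets. Their medians were 0.07, 0.04, 0.62 and 0.53 in replicates 1 to 4. The fibroblast and meningeal markers as a list had medians of 0.00, -0.01, 0.03 and 0.09, without such a step. Bgn, a proteoglycan gene of that list picked after its values were seen, had 1.01, 0.982, 1.71 and 1.49. Lum (1.11, 1.22, 2.53 and 1.47) and Slc22a6 (1.22, 1.90, 3.01 and 1.90) of the list were also highest in replicate 3. So were Aldh1a2, Aspn, Dcn, Islr, Slc6a13 and Twist1 on chip A, and some Igf2 and Ogn probe sets. On chip A Mgp (0.883, 0.942, 0.708 and 0.939), Fmod, Foxc1, Mfap5 and Pi16 of the same list were lowest in replicate 3. The endothelial medians were -0.55, 0.46, 0.19 and 0.23. The part of fibroblast or endothelial RNA in these collagen values was not tested.

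Col8a1, Col8a2 and Col14a1 were set side by side because their replicate order was alike. Their medians were 0.65, 2.20, -0.17 and 1.89, with replicate 3 lowest on 4 of 4 probe sets, as their choice implies. Col10a1, the other short-chain gene, was even and lowest in replicate 2. The choroid plexus and ependymal markers had list medians of 0.11, 0.67, 0.06 and 0.79 over 7 chip A probe sets. Replicate 3 was also lowest for Aqp1, a water channel gene, on 1 probe set (5.01, 12.4, 1.75 and 5.64), for the transthyretin gene Ttr (1.94, 2.29, 1.66 and 2.12) and for Foxj1, a regulator of motile cilia (1.04, 1.60, 0.802 and 1.73). It was not lowest for the folate receptor gene Folr1 (1.35, 3.63, 1.49 and 1.999), for Kl (0.648, 0.488, 0.483 and 0.456), for the channel gene Kcnj13 (1.08, 0.940, 0.958 and 0.898) or on the other Aqp1 probe set. The part of these cells in the type VIII and XIV values was not tested.

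**Figure D4:**
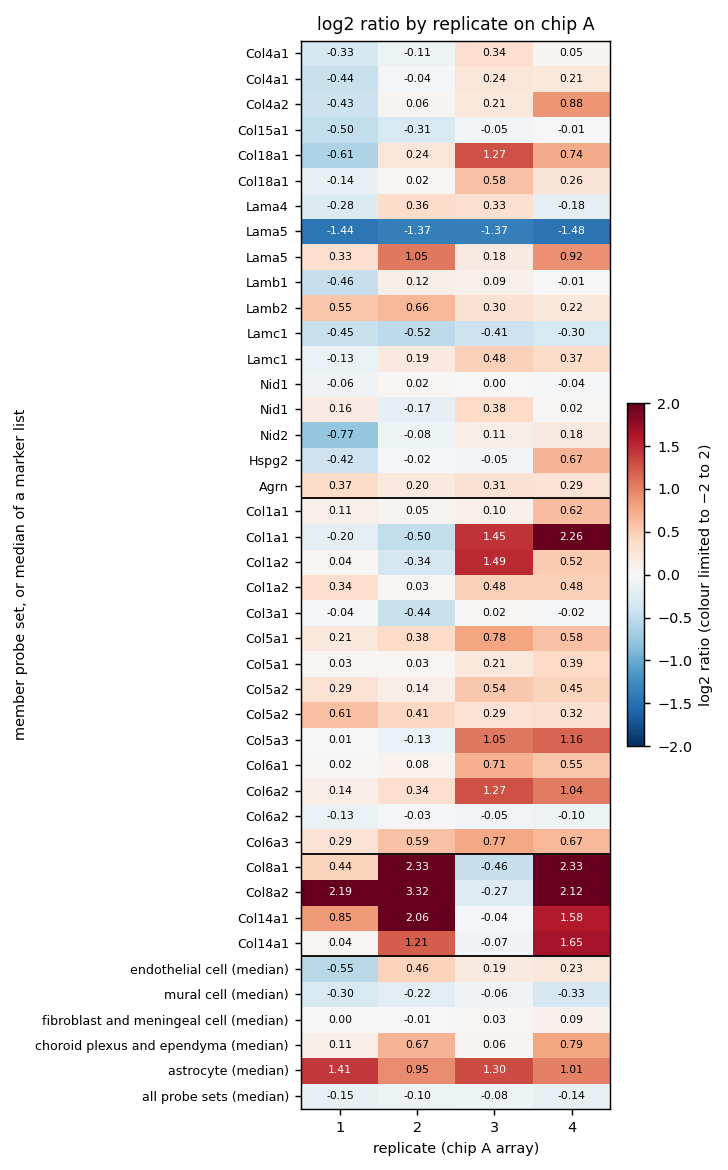
Log2 ratio on each chip A array (columns, replicates 1 to 4; rows, probe sets of the matrix genes above the last black line and medians of marker lists below it), coloured from blue (under 0) over white to red, with colour limited to -2 to 2. Replicate 1 is blue for many of the vessel basement membrane rows at the top and for the endothelial median (-0.55), replicates 3 and 4 are red for many fibrous collagen rows, and replicate 3 is pale or blue where Col8a1, Col8a2 and Col14a1 are red elsewhere.

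The genes that make and cross-link collagen went in both directions. Of 31 listed genes 23 were measured, of which 5 had a higher and 6 a lower probe set, beside 9.23% and 37.7% of all genes. Loxl1, which oxidizes lysines of elastin and collagen, was highest at 2.08, 2.49, 3.15 and 2.07 (1.27 ± 0.29, limma adjusted p = 0.000905), and all 4 arrays were at least 2-fold up. P3h3, a prolyl 3-hydroxylase family gene, stood at 1.09 ± 0.50, the lysyl hydroxylase gene Plod2 at 0.86 ± 0.28 and the procollagen C-proteinase gene Bmp1 at 0.80 ± 0.25. The lowest were Crtap, a partner of prolyl 3-hydroxylation, at -1.79 ± 0.06 and the prolyl 4-hydroxylase gene P4ha3 at -1.06 ± 0.05.

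Receptors for these proteins also went both ways. Of 32 listed 25 were measured, with 8 higher, 6 lower and 3 of these with both kinds. Over all genes 9.23% had a higher and 37.7% a lower probe set. Adgrg1, a receptor for type III collagen, had 3.95, 3.27, 4.39 and 4.09 (1.96 ± 0.18, limma adjusted p = 0.000107). The laminin-binding integrin gene Itga7 had 3.06, 3.35, 3.25 and 3.66 (1.73 ± 0.11) on its highest probe set and -0.92 ± 0.08 on its lowest. Dag1, whose product dystroglycan binds laminin, perlecan and agrin, had 2.23, 1.21, 3.64 and 3.22 (1.24 ± 0.72, adjusted p = 0.0185). Itgb6 on chip B had 7.00, 13.8, 1.94 and 7.07 (2.59 ± 1.18), lowest in replicate 3 like the type VIII genes. Musk, the muscle kinase of agrin signalling, was lower at -0.97 ± 0.08.

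Other matrix glycoproteins had 9 higher and 5 lower genes among 41 measured of 53 listed, beside 9.23% and 37.7% of all genes. Egfl6, a basement membrane protein of skin, stood at 2.23 ± 0.32 on chip B and Fbln2, a fibulin that binds nidogen and perlecan, at 1.81 ± 0.18 on chip A with ratios of 3.65, 3.26, 3.09 and 4.11 (limma adjusted p = 0.000123). The thrombospondin gene Thbs3 stood at 1.58 ± 0.18 and the Sparc relative Smoc1 at 1.48 ± 0.55. Thbs2 at -1.88 ± 0.48 and the laminin-like guidance gene Ntn1 at -1.60 ± 0.06 were lowest. Fbln2 thus lay above the reference on every array while its partners Nid1, Nid2 and Hspg2 did not differ from it beyond their spread.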

How the data were processed

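Each value deposited by the authors is a linear ratio to a reference that stays unnamed. Per the submitters' processing notes RMA was used, version unstated, and no label or header says how the ratio was formed. On chip B 23.0% of probe sets held exactly 1 on at least 1 array, and 4 of the 18 matrix probe sets did. Control probe sets (57 per array type) were left out, leaving 15866 for chip A and 15276 for chip B. A gene name was taken from the platform annotation where it gave a probe set exactly 1 symbol.

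Log2 ratios were fitted with limma 3.58.1 in R 4.3.3 (intercept, eBayes, two-sided, Benjamini-Hochberg within an array type), which was also tested on simulated data. A gene was called if any of its probe sets was. Ratios on every array were given for called genes, for those with a mean log2 ratio of 1 or more in size and for the 6 listed genes, with some uncalled relatives added beside them. From the marker and context lists, up to 4 called genes with the highest means and up to 2 with the lowest were to be named. The panel of genes from other organs held 112 chip A and 4 chip B probe sets. The chip B level was therefore that of chip A plus the median difference over 100 shared probe sets. The genes and lists were chosen with earlier results of these data known. Protein sequences were not used here.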

Additional observations from a re-analysis of the deposited data

Results flagged for a closer look

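Among the 76 probe sets, 4 had 1 array set apart from the other 3, with a gap to its neighbour above Dixon's 95% limit. Chance marks about 1 in 20 groups. One Col1a1 probe set was 1.54 in replicate 4 and 1.03 to 1.08 elsewhere. A Col2a1 probe set was 1.28 in replicate 3 and near 1 elsewhere, Col3a1 was 0.735 in replicate 2, and Col22a1 on chip B was 1.09 in replicate 2. None of these 4 was called higher or lower in limma.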

How the results depend on the processing

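The count of 13 genes with a higher probe set was 7 to 12 with 1 replicate left out, 8 when a gene was read by its median probe set and 1 above the panel level, and 9 with a trended, robust prior. The count of 9 lower genes was 8 or 9 under every alternative tried, which excludes the panel level, where none could be lower. Shares of all genes were computed only for the main, centred and panel-level fits. The other counts therefore do not show whether the difference from all genes changed. A pseudocount of 0.1 and leaving out probe sets with ratios under 0.1 changed no call. Of the 14 higher and 10 lower probe sets, 5 and 9 kept their call in every limma fit against a ratio of 1: Col4a5, Col5a2, Col6a3, Col11a2 and Col27a1 among the higher, and all but Col17a1 among the lower. Means of some uncalled probe sets changed sign: with arrays centred that of Nid1 (0.097) and Sparc (0.074), and with 1 replicate left out those of Nid2 (-0.25 to 0.069), Hspg2 (-0.16 to 0.20), Sparc (-0.15 to 0.067) and its other probe set (-0.43 to 0.072). No paired analysis was possible because the series holds 1 cell population, tested against a ratio of 1, with no other group to pair. The array types share 100 probe sets, which served only to set the chip B panel level. Without signal intensities or detection calls, the signal over background is unknown.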
